A study of Mus musculus with 191 samples.

Results

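Ethylene oxide was inhaled by female mice of the hybrid strain B6C3F1 at 100 ppm for 13 weeks, 6 hours a day on 5 days a week, and RNA of the right lung lobe was measured at 18 weeks of age. The arrays were chosen by the code ETOX in the sample title, which gave 4 arrays, 1 per animal, or 2.09% of the arrays of the series. They were set against the 3 air control sets of the same array batch, which carry the codes ACO3 (4 arrays), ACO4 (5 arrays) and ACO5 (5 arrays), 14 in all. The air animals had the same sex, strain, age and exposure hours, with ACO4 and ACO5 labelled at 0 ppm and ACO3 at 0 mg/m3. The labels do not say which air set ran beside ethylene oxide. One concentration and 1 time were sampled, and the number of arrays limits the precision. In whole-lobe RNA, fewer cells of a type and less RNA per cell cannot be told apart.

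Ethylene oxide is a small epoxide gas that reacts without metabolic activation and attaches hydroxyethyl groups to DNA and protein, most often at ring nitrogens of guanine and adenine. Cells remove such lesions by direct reversal and by base excision repair, in which a glycosylase cuts out the base, an endonuclease opens the strand, and a polymerase and a ligase close the gap with PARP enzymes and a scaffold protein in attendance. Persisting damage stabilises p53, which induces the cell cycle inhibitor Cdkn1a and the feedback regulator Mdm2. The epoxide itself is cleared by glutathione S-transferases, in particular of the theta class, and by epoxide hydrolase. The question put to these arrays was how large a change in these genes the data allow after 13 weeks of exposure.

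Values in the deposited table are logarithms, taken as base 2, and lie around 0 on each array, so a value below 0 is a low one for the array and not a negative amount. Lung markers were high in all 4 exposed arrays. Scgb1a1, the main secreted protein of club cells, was at 6.88, 6.97, 6.85 and 6.88 against an air range of 6.72 to 7.08, and Sftpc, the surfactant protein of alveolar type 2 cells, at 6.85, 7.01, 6.79 and 6.86 against 6.79 to 7.12. All 4 exposed values of both genes lay inside the air range. Each difference below is the mean of the 4 exposed arrays minus the equal-weight mean of the 3 air sets on the log2 scale, ± its standard error, with a 95% interval from limma. Calls required an adjusted p under 0.05 (Benjamini-Hochberg over all genes tested) in the same direction against all 3 air sets.

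No gene passed the test. Of 13514 genes tested, limma called 0 (0.0%) against each air set and 0 (0.0%) against the mean of the sets, where 364 genes were higher (2.69%) and 489 lower (3.62%) at an unadjusted p under 0.05. With 1 array left out, these 853 (6.31%) ran from 422 without ACO4 replicate 4 to 1157 without ACO4 replicate 1. Without exposed replicate 1 the count was 484. The lowest adjusted p against the mean was 0.493, shared by Elmo1, a regulator of Rac signalling, and Abcc5, an organic anion exporter. At an unadjusted p under 0.05 against each air set in turn, 30 genes were higher (0.222%) and 38 lower (0.281%). The interval lay within 1.5-fold of air for 13192 genes (97.6%) and within 2-fold for 13475 (99.7%).

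Of 4 quality measures only the beta-actin signal differed between the groups after adjustment. The RNA integrity number was 9.4, 9.4, 9.6 and 9.5 in exposed animals and 6.1 to 9.5, with a median of 9.1, in the 13 air animals that have one (two-sided exact permutation p = 0.0454, 0.0908 after Benjamini-Hochberg adjustment over 4 quality measures). Beta-actin 3' minus 5' signal was 0.50 to 0.58 in exposed and 0.54 to 0.98 in air arrays (exact permutation p = 0.0092, adjusted 0.0368). Gapdh 3' minus 5' signal (exact permutation p = 0.3111) and array SD (exact permutation p = 0.7987) did not pass. Without the 2 air arrays whose integrity number was under 8, limma still called 0 genes by either count. With air arrays of 9 or more only, limma called 0 against each set but 43 against the mean, 2 higher (Ldb2 and Abcc5) and 41 lower. ACO3 was then its replicate 4 alone, and the median difference of the 41 was -1.02 against that array, -0.04 against ACO4 and -0.12 against ACO5. The first of them were Nppa, a cardiac peptide, Thrsp and Ucp1, adipose genes. The part of RNA quality in the other differences from air was not tested.

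Limma called no gene between the 3 air sets. The arrays of ethylene oxide, ACO4 and methylene chloride at 4000 ppm share 1 deposited array mean, 0.00114, while ACO3 and ACO5 have means of 0.00334 and -0.00269, and the labels do not describe the step that gave shared means. The median F between the air sets over all genes tested was 0.405, where 0.739 is the median by chance for a single gene. Genes share the arrays and are not independent, so how far a median over genes varies by chance was not tested. Set against each other, ACO3 and ACO4 differed at 288 genes, ACO3 and ACO5 at 282 and ACO4 and ACO5 at 383 for an unadjusted p under 0.05, and limma called 0. Ethylene oxide against 1 set at a time gave 631 for ACO3, 489 for ACO4 and 845 for ACO5, and 45 for ACO4 without its replicate 4.

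The size of the response in each alkylation gene was bounded by its own interval. The 7 lists for repair, damage signalling, p53 targets and epoxide conjugation hold 185 genes, of which 150 were tested. Limma called 0 of the 150, against either measure of air. The interval of all 150 lay within 1.5-fold, as did that of 97.6% of all genes. The widest bounds of the 150 were 0.678-fold for Ephx2 and 1.49-fold for Trp53inp1. Each interval is for a single gene and was not widened for the number of genes. These extremes are therefore not a joint bound on the 150, and some intervals may miss the true value by chance. At an unadjusted p under 0.05, 2 of the 150 were higher and 8 lower, beside 2.69% and 3.62% of all genes. Their median difference was -0.01, and that of all genes tested was 0.00 (-9.32e-05). A difference under 0.1 was measured for 109 of the 150 (72.7%) and for 70.9% of all genes. The interval lay within 1.25-fold for 117 of the 150 and for 10332 of all 13514 genes. Some members were low on the arrays, such as Alkbh2 and Rad51b, with air medians of -0.43 and -0.80. The median of all values was -0.386. Low values could not be told from background, so the intervals of such genes bound the array signal and may not bound the transcript. Against ACO4 alone, the set of the same array mean, 148 stayed within 1.5-fold. Without exposed replicate 3, 143 of the 150 stayed within 1.5-fold, and against ACO4 in a fit of the arrays that share its mean, 142 did, with a lowest bound of 0.48-fold for Ephx2.

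**Figure D1:**
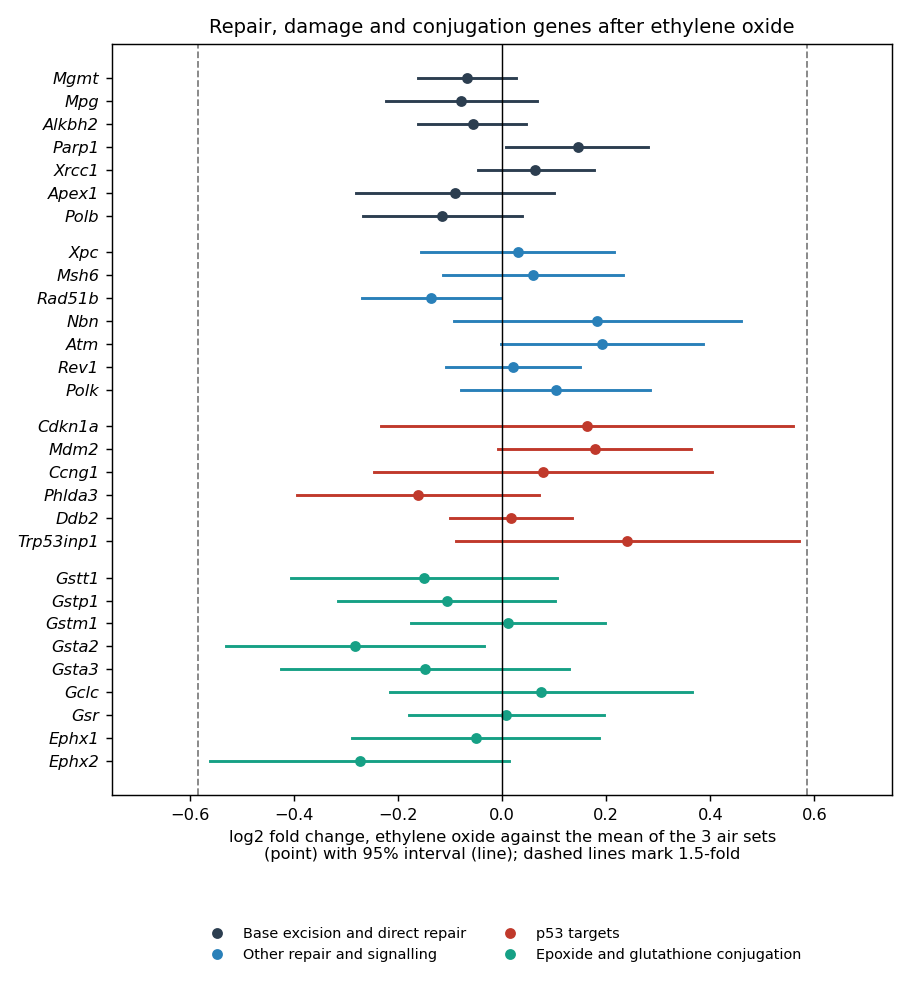
Log2 fold change of 29 repair, damage, p53 target and conjugation genes after ethylene oxide (4 arrays) against the mean of the 3 air sets (14 arrays), with 95% intervals as lines and dashed lines at 1.5-fold. Every interval lies between the dashed lines, the farthest bounds being -0.56 for Ephx2 and 0.57 for Trp53inp1.

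No gene of direct reversal or base excision repair passed the test. Mgmt, the methyltransferase that takes alkyl groups off guanine oxygen, was at -0.41, -0.38, -0.34 and -0.38 on the exposed arrays and ran from -0.51 to -0.07 (median -0.29) in air. The exposed values lay inside the air range, with a difference of -0.07 ± 0.05 (interval -0.16 to 0.03). Mpg, the glycosylase that excises alkylated purines, was at 0.10, 0.15, 0.39 and 0.10, with replicate 3 apart from the other exposed arrays, against 0.13 to 0.40 in air. Its difference was -0.08 ± 0.07, so the interval, from -0.22 to 0.07, allows no rise above 1.05-fold. Alkbh2, a dioxygenase that reverses alkylation of base-pairing nitrogens, differed by -0.06 ± 0.05, at a low air median of -0.43.

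Downstream in the same pathway, Apex1, the endonuclease, differed by -0.09 ± 0.10, Polb, the gap-filling polymerase, by -0.12 ± 0.08, and Xrcc1, the scaffold, by 0.06 ± 0.06. Parp1 and Parp2, which sense strand breaks, were the 2 members of the 7 lists that were higher at an unadjusted p under 0.05. Parp1 was at 1.56, 1.63, 1.82 and 1.61 against 1.32 to 1.79 in air. The groups overlapped, the difference was 0.14 ± 0.07, and the adjusted p was 0.757 by limma. Its air sets were uneven, with means of 1.39 in ACO3, 1.59 in ACO4 and 1.55 in ACO5. Parp2 differed by 0.15 ± 0.08 (adjusted p = 0.757 by limma). Over the 25 tested genes of this list the lowest bound was -0.28 (Apex1) and the highest 0.33 (Parg, which removes poly(ADP-ribose)), and the median was 0.02.

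The other repair and signalling lists also gave 0 calls. Of 23 nucleotide excision repair genes none passed the test by limma or an unadjusted p of 0.05, with differences from -0.21 for Rpa3, a subunit of the single-strand binding complex, to 0.11 for Ercc5, a nuclease. The 4 tested mismatch repair genes ranged from -0.02 (Mlh3) to 0.06 (Msh6). Among 20 genes of homologous recombination and crosslink repair, Rad51b, a strand exchange factor, was at -0.14 ± 0.07 with an unadjusted p of 0.0452 and an adjusted p of 0.757 by limma. Nbn, of the break-sensing complex, had the highest bound, 0.46, or 1.37-fold. Among 28 signalling and translesion genes, Atm, the kinase that answers double-strand breaks, was at 0.49, 0.14, 0.29 and 0.20 against -0.16 to 0.50 in air. All its exposed values lay inside the air range, at a difference of 0.19 ± 0.10. The translesion polymerases Rev1 and Polk differed by 0.02 ± 0.07 and 0.10 ± 0.09.

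No p53 target passed the test. Cdkn1a was at 2.61, 2.81, 2.73 and 2.50, and the air arrays ran from 2.12 to 3.06 with a median of 2.45. The exposed arrays sat in the middle of that range, each above the air mean, with a difference of 0.16 ± 0.20 and an interval from -0.23 to 0.56. A rise of Cdkn1a beyond 1.47-fold lies outside the interval. Mdm2 was at 1.14, 0.88, 1.11 and 0.99 against 0.59 to 1.03, which gave 0.18 ± 0.09 (unadjusted p = 0.0602, adjusted p = 0.757 by limma).

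Ccng1, a cyclin G that p53 induces strongly after radiation, was at 1.84, 1.23, 1.60 and 1.53, and in air at 0.70 to 2.15, so the exposed values fell inside a wider spread of controls. Its difference was 0.08 ± 0.16. Trp53inp1, a stress-induced p53 partner, had the largest positive difference of the 150 genes, 0.24 ± 0.17, and Phlda3, an inhibitor of AKT signalling, was at 1.63, 1.95, 1.95 and 1.02 with a difference of -0.16 ± 0.12. Of 22 tested p53 targets 13 were above and 9 below air, none at an unadjusted p under 0.05, and their median was 0.02. Bax and Gdf15 were not analysed here.

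**Figure D2:**
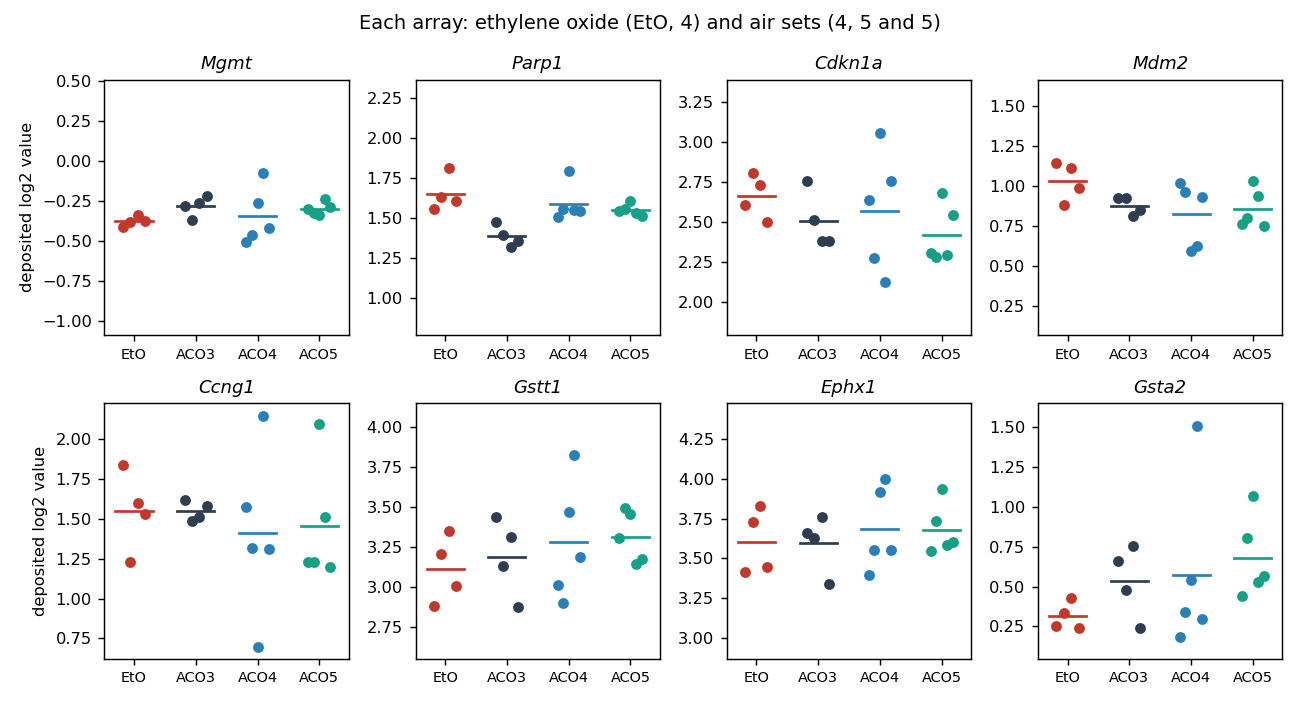
Deposited log2 value of 8 genes on each of the 4 ethylene oxide arrays (EtO) and each air array by set, with group means as lines. The exposed arrays overlap the air arrays for all 8 genes, Mgmt lying between -0.41 and -0.34 and Cdkn1a between 2.50 and 2.81.

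Conjugation genes leaned to the low side of air without passing the test. Of 28 tested genes for epoxide hydrolysis, glutathione transfer and glutathione synthesis, 24 were below and 4 above the air mean, and 7 were lower at an unadjusted p under 0.05 (25.0% beside 3.62% of all genes), namely Gsta2, Gsta4, Gstm3, Gstm7, Gstz1, Mgst1 and Mgst2. Limma called 0 of the 28, the adjusted p of each of the 7 was 0.757, and the median of the list was -0.13. Gsta2, an alpha-class transferase, was at 0.25, 0.33, 0.43 and 0.24 against 0.19 to 1.51 in air. The exposed arrays sat at the low end of a broad air range, at -0.28 ± 0.12. Mgst1, a microsomal transferase, was at 4.99, 5.08, 5.20 and 5.11 against 5.00 to 5.89, with a difference of -0.22 ± 0.10. The list's mean level per array ran from 1.67 to 1.99 in the exposed animals and from 1.73 to 2.31 in air, the lowest on exposed replicate 1 and the highest on ACO4 replicate 4. The median of the list was -0.06 without exposed replicate 1, -0.07 without the 2 air arrays of low RNA integrity, and 0.01 (0.005) against ACO4 alone without its replicate 4.

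Transferases and hydrolases that act on epoxides were measured on all arrays. Gstt1, the theta-class transferase that conjugates small epoxides, was at 2.88, 3.21, 3.35 and 3.00 against 2.88 to 3.82 in air, with a difference of -0.15 ± 0.13. Ephx1, microsomal epoxide hydrolase, was at 3.41, 3.73, 3.83 and 3.45 against 3.34 to 4.00, and differed by -0.05 ± 0.12. Ephx2, the soluble hydrolase, differed by -0.27 ± 0.15 and had the lowest single-gene bound among the 150 genes, -0.56. Gstp1 (-0.11 ± 0.10), Gstm1 (0.01 ± 0.09) and Gsta3 (-0.15 ± 0.14) overlapped air. Gclc, which limits the rate of glutathione synthesis, was at 2.76, 2.70, 2.98 and 2.76 within an air range of 2.43 to 3.11, and Gsr, which recycles oxidised glutathione, differed by 0.01 ± 0.09.

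Targets of NRF2, the factor that answers electrophiles, gave no call. Limma called 0 of 27, with 0 higher and 4 lower at an unadjusted p under 0.05, beside 2.69% and 3.62% of all genes. Of the 27 intervals 25 lay within 1.5-fold, beside 97.6% of all genes. Nqo1, a quinone reductase, was at -0.40, -0.25, -0.33 and -0.41 and in air at -0.44 to 0.06, a difference of -0.10 ± 0.09. Hmox1, heme oxygenase, differed by -0.06 ± 0.12 and Srxn1, sulfiredoxin, by 0.00 ± 0.08. Gpx2, an epithelial glutathione peroxidase, was at 1.19, 1.53, 1.72 and 1.45, below the air median of 1.85 on every exposed array. These values lay inside or under the air range of 1.30 to 2.77, the top of which was ACO4 replicate 4. Gpx2 had the largest difference in the list, -0.39 ± 0.15 (adjusted p = 0.735 by limma).

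Limma called 0 of 7 targets of the aryl hydrocarbon receptor and 0 of 15 P450 and flavin monooxygenase genes. Of the 7 targets 2 were lower at an unadjusted p under 0.05, beside 3.62% of all genes. Intervals of 5 lay within 1.5-fold, beside 97.6% of all genes. The lowest difference was that of Cyp1a2, a P450 best known from liver (-0.66 ± 0.18). Of the 15 genes 11 were below air and 0 reached an unadjusted p of 0.05. Cyp1a1, the main target of the aryl hydrocarbon receptor in lung, was at 1.11, 1.21, 0.90 and 0.92 inside an air range of 0.10 to 1.76. Cyp2f2, the club cell P450, differed by -0.14 ± 0.08. Cyp2e1 was at 0.33, 0.71, 1.68 and 1.60 and spread in air from 0.06 to 4.07, so its interval, -1.21 to 0.19, bounds little.

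Other programmes gave 0 calls by limma each. Among 22 cell cycle genes, Mki67, a proliferation antigen, was at 0.32 on replicate 1 and at -0.53, -0.62 and -0.33 on the others, against -0.70 to -0.16 in air. Replicate 1 also had the highest exposed value of Top2a (0.26), the mitotic topoisomerase, and of Ngp (2.35), a neutrophil granule protein, where the air arrays ended at 0.04 and 0.63. The mean of the 22 cell cycle genes was 0.12 on that array, -0.09 to 0.01 on the other 3 and -0.13 to -0.02 in air. Among 19 inflammation genes 0 were higher and 3 lower at an unadjusted p under 0.05 (beside 2.69% and 3.62% of all genes, as for the lists that follow), among them Cxcl5, a neutrophil chemokine of the epithelium, at -0.51 ± 0.21. Of 16 interferon-stimulated and 22 immediate early genes none reached an unadjusted p of 0.05. Of 18 clock genes 3 were higher and 1 lower at that level, led by Nr1d2, a clock repressor, at 0.62 ± 0.29. Of 22 mitochondrial respiration genes 20 were below air and 6 lower at an unadjusted p under 0.05 (beside 3.62% of all genes), with Cycs, cytochrome c, at 2.83, 2.92, 3.17 and 2.94 against 2.79 to 4.43 and a difference of -0.40 ± 0.15. Against ACO4 alone without its replicate 4 the median of the list was -0.01, beside -0.16 against all sets.

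Markers of lung cell types gave 0 calls by limma in every list. Of 18 club cell markers 17 were below air, 5 of them at an unadjusted p under 0.05 (beside 3.62% of all genes lower), at a median of -0.20 (-0.06 against ACO4 alone without its replicate 4). Bpifa1, a secreted upper airway protein, had the largest difference of all genes tested, -1.38 ± 0.82, and also the widest interval. It was at 2.70, 1.50, 4.14 and 4.61 and in air at 1.89 to 6.29. Of 16 endothelial markers 14 were above air and 2 were higher at an unadjusted p under 0.05 (beside 2.69% of all genes), at a median of 0.18 (0.03 against ACO4 alone without its replicate 4). Eng, an endothelial receptor of the transforming growth factor family, was at 3.54, 3.98, 3.90 and 3.77 against 2.71 to 3.96, a difference of 0.33 ± 0.14. The median of 17 alveolar type 2 markers was -0.03, of 16 alveolar type 1 markers 0.01, of 17 ciliated cell markers -0.05 and of 16 macrophage markers -0.07.

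Outside the alkylation lists, larger differences were measured, and none passed the test. Named here are genes with an unadjusted p under 0.05 in 1 direction against each air set, by the size of the difference. On the high side stood Sox11, a developmental transcription factor, at 0.94, 0.66, 0.82 and 0.87 against -0.54 to 0.96 in air, a difference of 0.55 ± 0.15 (adjusted p = 0.516 by limma). Next were Fendrr, a long noncoding RNA of lung mesenchyme (0.54 ± 0.18), Lipg, endothelial lipase (0.46 ± 0.15), Mbd1, a methyl-CpG binding protein (0.43 ± 0.15), Ldb2, a LIM-domain binding cofactor (0.39 ± 0.11), Gpm6b, a neuronal membrane glycoprotein (0.38 ± 0.13), Rasal2, a RAS GTPase activator (0.36 ± 0.11), and Nr2f2, the venous regulator COUP-TFII (0.34 ± 0.10). On the low side, Cyp1a2 was at -1.31, -1.21, -1.05 and -1.10 against -1.44 to 0.84, a difference of -0.66 ± 0.18 (adjusted p = 0.516 by limma). Ifi27l2a, an interferon-inducible gene, differed by -0.64 ± 0.21.

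Several of the other low genes are known as liver transcripts, among them Slc2a2, a hepatic glucose transporter (-0.48 ± 0.13), Asgr1, the asialoglycoprotein receptor (-0.42 ± 0.12), Fgl1, a secreted hepatocyte protein (-0.40 ± 0.16), Proz, a plasma protein (-0.37 ± 0.10), and Igfbp1 (-0.36 ± 0.13). In every exposed array the values of these genes lay under the air mean. All 4 exposed arrays lay above all 14 air arrays for 4 genes (0.0296%), Elmo1, Mbd1, Rab5b and Slc35b4, and below them for 3 (0.0222%), Avpr1a, Pnck and Wfdc3, all chosen here after their values were seen. The largest of these differences were those of Mbd1 and Elmo1 (0.30 ± 0.07), and the other 5 were under 0.2 in size.

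Transcripts of liver varied widely among the lung arrays, air included. The mean of 13 liver transcripts, a list chosen after the data were seen and described here without a test, was -0.47, -0.20, 1.03 and 0.24 on the exposed arrays and ran from -1.33 to 3.17 in air with a median of 0.45. It was highest on ACO4 replicate 4, where Alb, serum albumin, stood at 4.93, and next on ACO4 replicate 3 (1.80) and ACO3 replicate 1 (1.69). Adipose and cardiac genes were highest on ACO3 replicate 4, at means of 2.60 and 2.30, where the exposed arrays reached at most 0.81 and 1.04. Against ACO4 alone with its replicate 4 left out, the difference of Cyp1a2 was -0.18, of Slc2a2 -0.05, of Fgl1 0.04, of Sox11 0.13 and of Fendrr 0.21, whereas that of Mbd1 was 0.40. The part of liver RNA in the other differences was not tested.

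**Figure D3:**
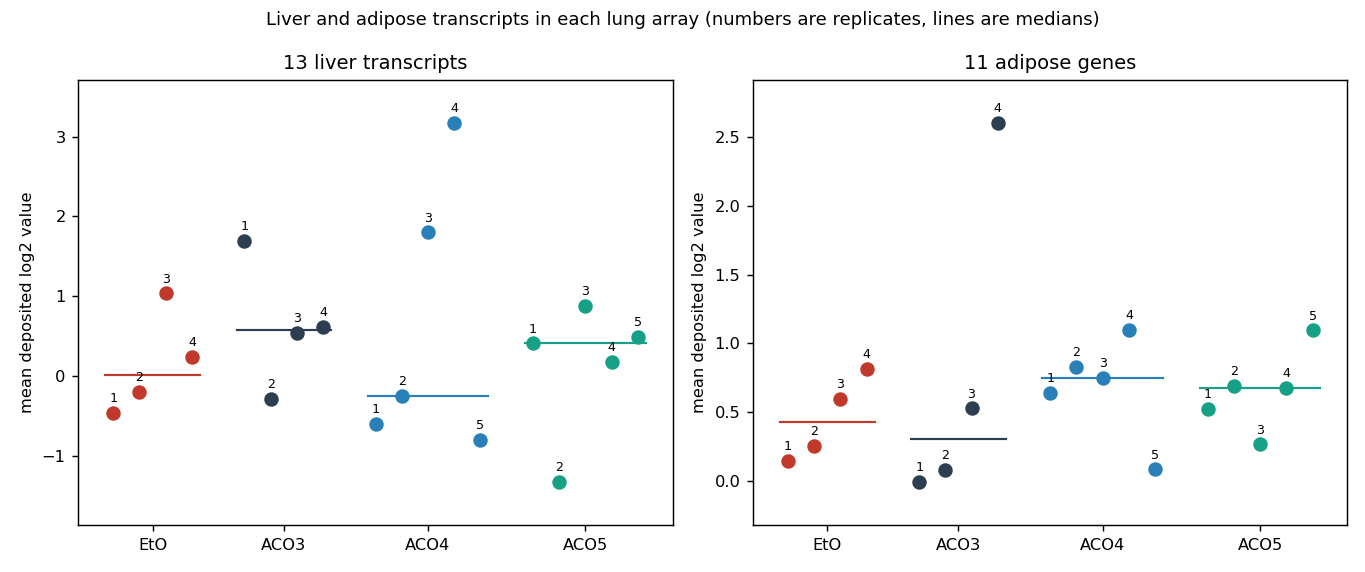
Mean deposited log2 value of 13 liver transcripts (left) and 11 adipose genes (right) on each ethylene oxide array (EtO) and each air array, numbered by replicate, with set medians as lines. ACO4 replicate 4 reaches 3.17 for liver transcripts and ACO3 replicate 4 reaches 2.60 for adipose genes, above every exposed array.

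Other inhaled groups of 4 or 5 arrays, tested by the same rule against the same 3 air sets, gave calls in all but 1 case. Methylene chloride gave 20 (0.148%) at 100 ppm, 0 (0.0%) at 500 ppm, 2 (0.0148%) at 2000 ppm, 78 (0.577%) at 3000 ppm and 68 (0.503%) at 4000 ppm. Naphthalene gave 50 (0.37%) at 0.5 ppm, 48 (0.355%) at 3 ppm, 75 (0.555%) at 10 ppm, 286 (2.12%) at 20 ppm and 277 (2.05%) at 30 ppm. Propylene glycol mono-t-butyl ether gave 91 (0.673%), and vanadium pentoxide (VANP) gave 586 (4.34%). Against the mean of the sets, where ethylene oxide gave 0, the counts of methylene chloride in the same order of concentration were 3054 (22.6%), 1976 (14.6%), 897 (6.64%), 709 (5.25%) and 249 (1.84%). Those of naphthalene were 291 (2.15%), 216 (1.6%), 410 (3.03%), 1321 (9.78%) and 1043 (7.72%), the ether gave 1741 (12.9%) and vanadium pentoxide 1561 (11.6%). Methylene chloride at 500 ppm therefore gave 0 by the stricter rule alone. These counts share their controls with ethylene oxide. Methylene chloride at 100 to 3000 ppm and naphthalene at 0.5 to 20 ppm have array means that no air set shares. Ethylene oxide and methylene chloride at 4000 ppm have that of ACO4, so the counts are not a like comparison. The part of the step behind the shared means in these counts was not tested. The median size of a difference from air was 0.06 for ethylene oxide, 0.06 for methylene chloride at 4000 ppm and 0.08 for naphthalene at 30 ppm, and the 95th percentile was 0.22, 0.24 and 0.33.

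**Figure D4:**
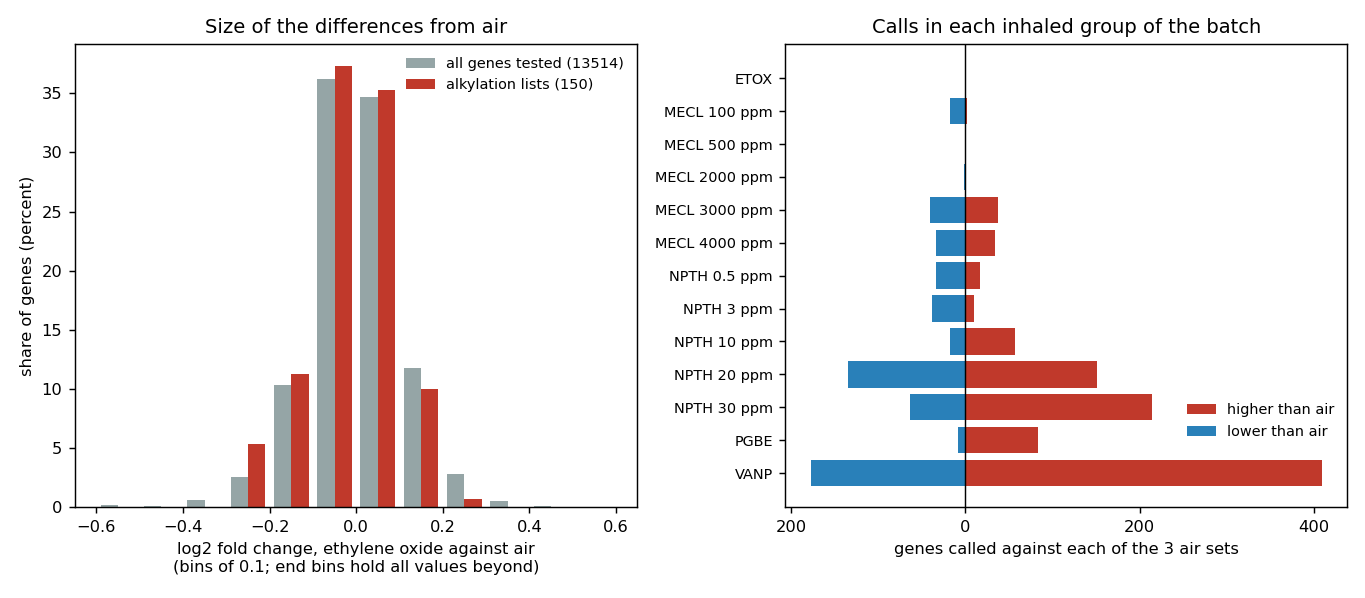
Left, share of genes by log2 fold change of ethylene oxide against air in bins of 0.1 for all 13514 genes tested and for the 150 alkylation genes. Right, genes called higher and lower against each of the 3 air sets in every inhaled group of the batch, where ethylene oxide (ETOX) and methylene chloride (MECL) at 500 ppm have 0 and VANP has 586.

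A direct contrast with methylene chloride at 4000 ppm, in the same model, compared ethylene oxide with a group of the same array mean, without air arrays. Limma found 66 genes that differed (0.488%), 26 higher (0.192%) and 40 lower (0.296%) in ethylene oxide, and 43 without methylene chloride replicate 2. Genes of the circadian clock led, 10 of 18 tested, at a median difference of -0.67, with 9 to 11 when 1 array was left out. Dbp, a clock output factor, was at -0.18, 0.10, -0.01 and 0.78 after ethylene oxide, at -0.35 to 0.74 in air and at 3.66, 4.11, 3.46 and 3.50 after methylene chloride. Of the ethylene oxide arrays only replicate 4 lay above the air range, and the contrast was -3.51 ± 0.42 (adjusted p = 1.67e-10 by limma).

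Per2, a negative limb component, was at 0.01, -0.10, 0.08 and 0.05 against 1.23, 1.44, 1.05 and 1.24 (-1.23 ± 0.13, adjusted p = 1.47e-13 by limma). Arntl, the positive limb partner of CLOCK, went the other way, at 0.90, 0.84, 1.10 and 0.64 against -0.62, -0.65, -0.66 and -0.39 (1.45 ± 0.18, adjusted p = 9.65e-10 by limma). Among other genes, Eln, elastin, was higher in ethylene oxide by 1.25 ± 0.20 and Spon2, a matrix protein, by 1.28 ± 0.19, while Tspan4, a tetraspanin, was lower by 1.42 on the log2 scale. Collection times are not in the labels. Limma called 0 of the 150 alkylation genes in this contrast, and up to 2 under other settings. At an unadjusted p under 0.05 by limma 8 of the 150 differed. The share of all genes at that unadjusted level was not counted, so the 8 have no background here.

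Naphthalene at 30 ppm, a bicyclic hydrocarbon that club cells turn into reactive epoxides, differed more broadly. Limma found 569 genes higher (4.21%) and 555 lower (4.11%) in ethylene oxide than in naphthalene, 1124 in all. Of these, 980 lay nearer to air in ethylene oxide. They were picked by the contrast itself, and the share nearer to air over all genes was not counted, so this is a description. The count was 716 without ethylene oxide replicate 3, 559 without naphthalene replicate 2 and 641 without replicate 4, and 159 when each exposure was first set against the air set of its own array mean. Of 27 NRF2 targets 10 were lower in ethylene oxide, 7 to 11 with 1 array left out and 5 in the own-set comparison. Nqo1 was at 0.66, 1.17, 0.79 and 0.98 after naphthalene, above every exposed and air value given above, a contrast of -1.25 ± 0.12 (adjusted p = 7.72e-17 by limma). Gpx2 (-1.51 ± 0.19) and Gclc (-0.74 ± 0.18) were lower likewise.

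Of 9 goblet and mucous genes 6 were lower in ethylene oxide (beside 4.11% of all genes), 4 to 6 with 1 array left out and 2 in the own-set comparison. Agr2, a disulfide isomerase of mucus-producing cells, was at -0.77, -0.87, -0.77 and -0.54 after ethylene oxide, -1.10 to -0.22 in air and 0.51, 1.79, 1.35 and 1.45 after naphthalene (-2.01 ± 0.18, adjusted p = 1.52e-18 by limma). Lrg1, an acute phase glycoprotein, differed by -2.17 ± 0.23 and Lcn2, lipocalin, by -1.56 ± 0.19. On the other side, Pon1, a plasma esterase, was higher in ethylene oxide by 1.90 ± 0.21 and Gabrp, an airway epithelial receptor subunit, by 1.17 ± 0.18. Each of these genes differed under every setting run. Of 17 ciliated cell markers 10 were lower, but 3 without ethylene oxide replicate 1 or naphthalene replicate 2, 5 without ethylene oxide replicate 2, 4 without its replicate 4, 5 without naphthalene replicate 4, and 0 in the own-set comparison.

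The share of alkylation genes that differed from naphthalene was near that of all genes. Of the 150, 12 differed (8.0%, beside 8.32% of all genes), 2 higher and 10 lower in ethylene oxide, of which 9 were conjugation genes such as Gstm1 (-0.39 ± 0.12), Gstp1 (-0.46 ± 0.13) and Gclc, and the rest were Slx4, a nuclease scaffold, Chek2, a checkpoint kinase, and Perp, a p53 target. The 12 became 4, 7 and 7 without ethylene oxide replicate 1, 2 or 4, 3 and 6 without naphthalene replicate 2 or 4, and 2 in the own-set comparison. The 9 conjugation genes were 32.1% of the 28 tested, beside 8.32% of all genes. They became 4 and 5 without ethylene oxide replicate 1 or 4, 3 without naphthalene replicate 2 and 2 in the own-set comparison.

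**Figure D5:**
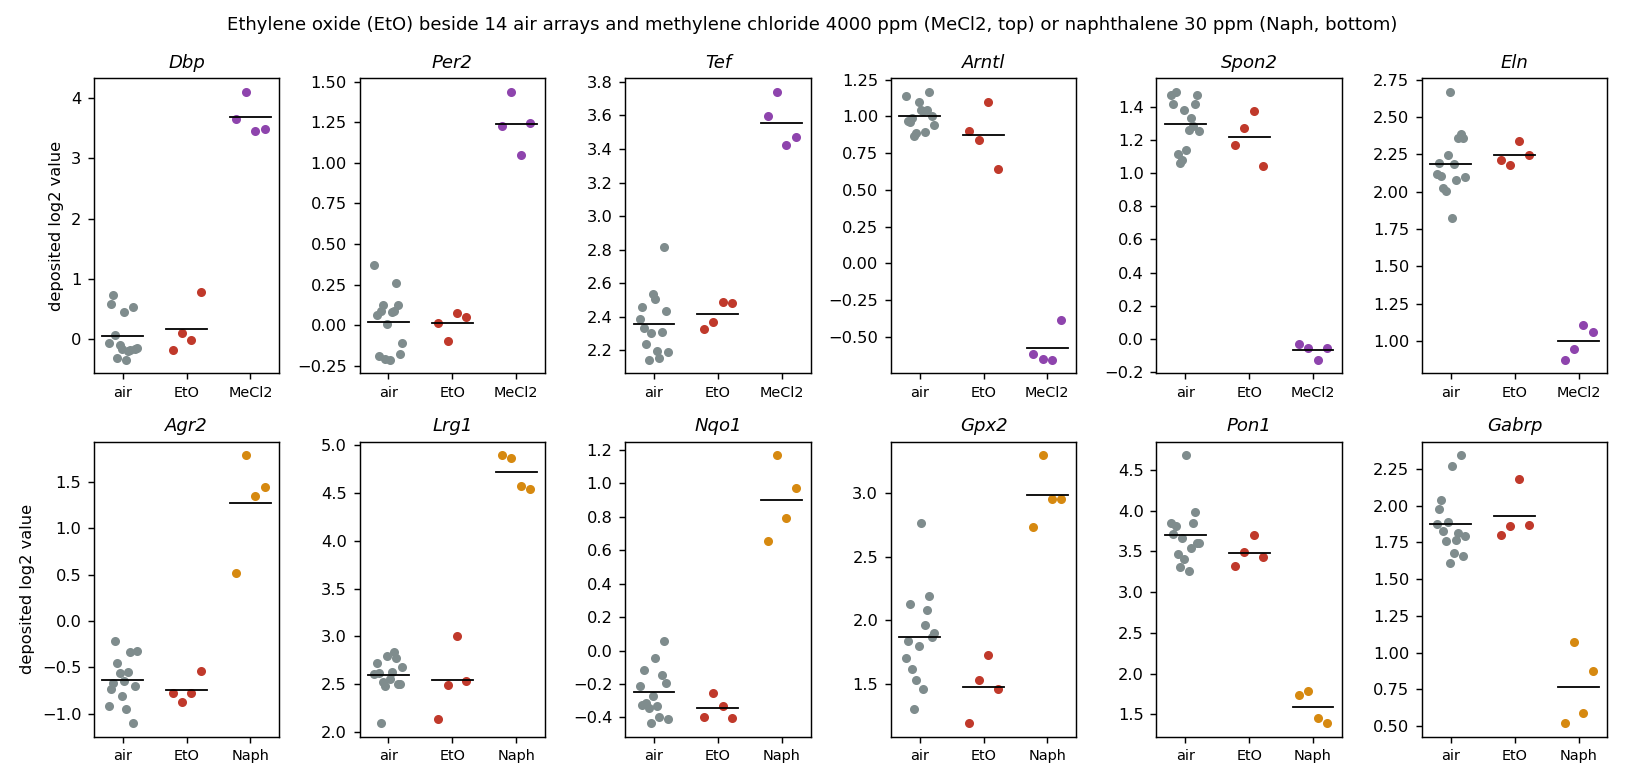
Deposited log2 value of 6 genes each on the 14 air arrays, the 4 ethylene oxide arrays (EtO) and the 4 arrays of methylene chloride at 4000 ppm (top, MeCl2) or naphthalene at 30 ppm (bottom, Naph), with group means as lines. Ethylene oxide lies nearer to air than the other chemical does in all 12 panels, as for Dbp, where methylene chloride stands at 3.46 to 4.11. The genes shown are among those that differed in these contrasts.

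Propylene glycol mono-t-butyl ether at 1200 ppm differed from ethylene oxide at 816 genes (6.04%) by limma, 102 higher (0.755%) and 714 lower (5.28%) in ethylene oxide. This count rested on single arrays, at 62, 527, 1703 and 143 without ethylene oxide replicate 1, 2, 3 or 4, and at 93 and 269 without replicate 1 or 3 of the ether. It was 3 when each exposure was first set against the air set of its own array mean. Cyp2c29, a P450 known from liver, led the lower genes at -2.11 ± 0.35. Of the 150 alkylation genes 10 differed (6.67%, beside 6.04% of all genes), 1 higher and 9 lower in ethylene oxide, Mgmt among the lower. The 10 became 0, 5, 25 and 2 without ethylene oxide replicate 1, 2, 3 or 4. They became 0 and 4 without replicate 1 or 3 of the ether, and 0 in the own-set comparison.

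Correlations of the 4 exposed arrays with air and with each other are given as a description. The mean correlation of an exposed array with the other 3, over the genes tested, was 0.985 to 0.991, and with the arrays of an air set 0.971 to 0.988. Each exposed array had its lowest air-set value with ACO4. That mean includes ACO4 replicate 4, the array highest in liver transcripts (3.17), and was not computed without it. Correlations among air arrays were not computed, so these values have no scale for closeness, and genes that share an array are not independent replicates. Replicate 1 had the lowest correlation with the other 3, with ACO3, with ACO4 and with ACO5.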

How the data were processed

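Lung RNA was measured on Affymetrix whole-genome mouse arrays, per the labels. The deposited table gives log values, read here as log2, for each probe set and array. The base and the authors' normalization are not given in the sources used here, and every fold rests on base 2. Of 45101 probe sets 34958 had 1 symbol in the platform annotation, 932 several and 9211 none; 34956 were matched to current names. For each of 18162 genes the probe set with the greatest mean over all arrays was kept, and 13514 with at least 3 arrays above -0.386, the median of all values, were tested.

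A group-means model over all arrays of the series was fitted with limma 3.58.1 in R 4.3.3, tested on simulated data, and exact permutation tests used scipy. Benjamini-Hochberg adjustment ran over all genes tested. Named genes were the listed damage, conjugation and epithelial genes, up to 12 of the largest differences each way with an unadjusted p under 0.05 against each air set, the extremes of each list, and the largest 12 called each way in a direct contrast. The members, gene lists and tests were chosen with earlier results of these data known. Alternatives were quantile normalization, a common array SD, averaging a gene's probe sets, leaving out the filter, smaller fits, other uses of the air sets and leaving out each array. Those by RNA integrity, by shared array mean, and leaving out arrays of the other chemicals were chosen after seeing the data. Scanner files were not used here.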

Additional observations from a re-analysis of the deposited data

Results flagged for a closer look

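A sample stood apart from the others of its group at 15 of 187 groups of 4 or 5 arrays examined, where chance gives about 1 in 20. Among the exposed arrays, replicate 3 was high for Mpg (0.39) and for the mean of the ciliated cell markers (1.50), and replicate 2 was low for Fendrr (2.10). Among the air arrays, ACO4 replicate 4 was low in RNA integrity number (7.8), high in beta-actin 3' minus 5' signal (0.98), high in ciliated cell markers (1.65) and low in endothelial markers (2.77), and ACO4 replicate 1 was low in the Gapdh 3' minus 5' signal (0.13). ACO5 replicate 3 was high in beta-actin 3' minus 5' signal (0.89) and in array SD (1.39). It was also low for basal and upper airway genes (-0.58) and for thymus and lymph node genes (-0.58). ACO3 replicate 1 was low for B and plasma cell genes (0.42). The mean of the p53 targets was low on ACO4 replicate 2 (1.01) and high on ACO5 replicate 3 (1.32).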

How the results depend on the processing

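The count of genes called against each air set was 0 under all 34 alternatives, 18 of them leaving out 1 array, and against the mean of the sets it was 0 in all but 1, the 43 with air arrays of integrity number 9 or more. The number at an unadjusted p under 0.05 ran from 45 to 1478. Of the 150 alkylation genes 142 to 150 stayed within 1.5-fold, 143 to 150 with 1 array left out, and their median ran from -0.03 to 0.03. Over these settings the widest bounds of the 150 were 0.48-fold (Ephx2) and 1.65-fold (Ccng1). Between ethylene oxide and methylene chloride 66 genes became 100 with arrays at a common SD and 101 with the batch alone, and 43 to 69 with 1 array left out. For naphthalene 1124 became 1840, 1936 and, against own air sets, 159, and 559 to 1201 with 1 array left out. For the ether 816 became 198 after quantile normalization, 2084 with the batch alone, 3 against own air sets, and 62 to 1703 with 1 array left out. Of the other values, 3380 for single genes and 1321 for list medians moved by less than the spread between exposed arrays, and 122 and 39 by more. The causes were not tested. No paired analysis was possible because the labels give no replicate numbers that pair animals across groups. Signal over background is not in the table, so low values could not be told from background.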
